A study of Mus musculus with 11 samples.

Results

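Fat cells are not among the cells that exchange gas in the lung, and the genes that define them can be read in lung RNA as a set. The set described here holds 10 listed adipocyte genes, namely Adipoq, Cfd, Plin1, Plin4, Lep, Cidec, Retn, Fabp4, Lpl and Ucp1. A gene was measured where the array annotation gave a row 1 symbol only, and the row with the highest mean stood for the gene. That left 9 of the 10 listed genes among 19938 genes in all, and Cfd was not analysed here. In these lungs the adipocyte genes varied mainly between arrays of the same group. Most genes on these arrays did so: for 89.8% of all genes the widest range within a group exceeded that of the group means. The between-group share of the sum of squares was 1.28% to 25.7% for the 9 genes, beside a median of 33.0% over all genes. In each group 1 array was highest for most of the 9 genes: control 1, aspirin 2, triptolide 3 and combination 2. In the triptolide group it was a low array that stood apart. The mean log2 value of the 9 genes, less their mean over all arrays, was -0.63 on triptolide 2. It was 0.11 on triptolide 1 and 0.23 on triptolide 3. No difference between groups passed the test for any of the 9 genes, but neither did one for any of the 19938 genes.

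The study asked how aspirin and triptolide, given alone or together, act on the lung in work on lung cancer suppression. RNA from the lungs of 129S1 mice was hybridised to 11 Affymetrix arrays, with 2 untreated controls and 3 arrays each for aspirin, triptolide and both drugs, here called the combination. Aspirin is a cyclooxygenase inhibitor and was gavaged at 4 mg per kg, triptolide is a diterpenoid of the thunder god vine and was gavaged at 1 mg per kg, and the combination received both doses, on 5 days a week for 2 months. The titles call the controls untreated, while the treatment protocol lists a PBS group, and the labels do not settle which applies. Age and sex are not given in the labels, and nothing in them says that the arrays of a group came from separate mice. The p-values therefore measure only the spread between these samples, which may be in part technical. The sex-linked genes Xist and Eif2s3y read 12.32 and 6.39 on triptolide 1, and 6.61 and 9.56 on triptolide 3. Those arrays were thus not repeats of 1 sample, while for the other groups this is not settled. Values are log2 expression levels of RMA-type processing, and they carry no detection call, so whether a low gene lay above background is unknown.

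White adipocytes store fat in a single large droplet and secrete hormones, called adipokines, that report the size of the store to other organs. Brown adipocytes burn fat for heat through the uncoupling protein encoded by Ucp1. Fat lies around the airways and vessels at the lung root and in the mediastinum beside the heart and thymus, while lung cells of other types also use some of these genes: Fabp4 is expressed in capillary endothelium and macrophages, and Lpl in macrophages and other lung cells. The transcription factors PPARG and C/EBP alpha switch on much of the fat cell program.

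The stretch of 250 bases before the start of a gene is shown for 3 adipokine genes, 1 lipid droplet gene and Ucp1, because the first 4 varied together across the arrays and Ucp1 correlated with them less. The sequences are those of RefSeq on GRCm38.p6, written 5′ to 3′ on the strand of the gene. Capitals mark a match to a searched motif.
Adipoq, chr16:23146286-23146535, plus strand: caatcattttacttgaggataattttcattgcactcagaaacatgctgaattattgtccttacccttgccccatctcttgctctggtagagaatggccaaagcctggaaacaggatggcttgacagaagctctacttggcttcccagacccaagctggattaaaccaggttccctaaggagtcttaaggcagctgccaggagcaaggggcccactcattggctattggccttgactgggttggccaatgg
Retn, chr8:3655520-3655769, plus strand: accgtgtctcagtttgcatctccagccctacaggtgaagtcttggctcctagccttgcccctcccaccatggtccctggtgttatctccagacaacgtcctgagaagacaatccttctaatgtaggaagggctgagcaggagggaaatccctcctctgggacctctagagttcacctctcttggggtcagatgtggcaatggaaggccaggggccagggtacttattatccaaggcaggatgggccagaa
Lep, chr6:29059971-29060220, plus strand: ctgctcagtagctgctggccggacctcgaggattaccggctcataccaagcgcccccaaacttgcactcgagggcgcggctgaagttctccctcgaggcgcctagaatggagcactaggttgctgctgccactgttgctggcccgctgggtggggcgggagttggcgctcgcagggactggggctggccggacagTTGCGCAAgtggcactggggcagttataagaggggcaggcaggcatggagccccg
Cidec, chr6:113435761-113436010, minus strand: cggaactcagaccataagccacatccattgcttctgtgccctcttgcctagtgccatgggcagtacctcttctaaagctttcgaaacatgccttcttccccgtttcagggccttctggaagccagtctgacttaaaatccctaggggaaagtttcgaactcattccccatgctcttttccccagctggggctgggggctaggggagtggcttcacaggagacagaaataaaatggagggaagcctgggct
Ucp1, chr8:83290098-83290347, plus strand: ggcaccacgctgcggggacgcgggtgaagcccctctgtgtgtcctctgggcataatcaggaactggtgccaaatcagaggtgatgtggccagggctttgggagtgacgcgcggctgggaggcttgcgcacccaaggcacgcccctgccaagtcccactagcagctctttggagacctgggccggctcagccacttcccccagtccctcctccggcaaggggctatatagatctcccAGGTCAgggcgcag
The motifs searched on both strands were AGGTCA, the nuclear receptor hexamer; DR1, that hexamer repeated in the same direction with any 1 base between, which PPARG binds with RXR; TTGCNNAA, a C/EBP pattern; TATAAA, the TATA box; and TGACGTCA, the cAMP response element. AGGTCA forms part of DR1, so those searches overlap. The Lep window held TTGCGCAA from position -55 to -48 relative to the start, a C/EBP pattern that reads the same on both strands. The Ucp1 window held AGGTCA from -14 to -9. The windows of Adipoq, Retn and Cidec printed here held none of the 5 patterns. Over 32817 windows of the same length, AGGTCA was found in 14.0%, TTGCNNAA in 9.57%, TATAAA in 12.4%, TGACGTCA in 1.55% and DR1 in 0.0335%. The matches are letter matches and were not tested for binding. Of the 10 listed genes, 8 had a window in the table and 6 a window ending at the gene start. Among windows that ended elsewhere and are not printed, a C/EBP match lay at -198 to -191 for Cidec. Plin1 had such matches at -187 to -180 and at -58 to -51.

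Across all genes the arrays correlated at 0.9474 to 0.9965. In a principal component analysis, combination 1 scored 60.2 on component 1 (45.5% of the variance) and the other arrays between -15.0 and 6.8. Surfactant gene Sftpa1, a marker of lung epithelium, read between 12.78 and 14.03 on all 11 arrays. Xist and the Y-linked genes split the arrays across the groups: the 3 aspirin arrays and triptolide 3 had low Xist (6.61 to 7.0), triptolide 2 had 9.75 with Eif2s3y at 9.82, and the other 6 arrays had 11.98 to 12.80.

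Adipoq encodes adiponectin, the hormone made almost only by fat cells. It read 9.75 and 8.31 on the control arrays, 7.52, 9.43 and 7.73 with aspirin, 8.43, 7.13 and 8.85 with triptolide, and 7.38, 9.38 and 8.18 with the combination. Control 1, aspirin 2 and combination 2 were the 3 highest arrays and triptolide 3 the next, and every pair of groups overlapped. Within groups the highest array exceeded the lowest by 2.71-fold in controls, 3.75-fold with aspirin, 3.31-fold with triptolide and 3.99-fold with the combination. The group means were 9.03 ± 1.02 (SD, n = 2) in controls, 8.31 ± 1.01 (SD, n = 3) with the combination, 8.23 ± 1.05 (SD, n = 3) with aspirin and 8.14 ± 0.90 (SD, n = 3) with triptolide, so neighbours in this order differed by less than the SD within a group. Over all 11 arrays Adipoq spanned 6.14-fold, and its SD was larger than that of 99.5% of genes. In bulk tissue, fewer fat cells and less RNA per fat cell cannot be told apart.

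Retn encodes resistin, an adipokine that in mice comes mainly from fat. It read 9.71 and 8.64 in controls, 8.31, 9.33 and 8.48 with aspirin, 8.96, 7.84 and 8.79 with triptolide, and 8.37, 9.40 and 9.14 with the combination. The same control, aspirin and combination arrays were highest in their groups, while in the triptolide group triptolide 1 was highest and triptolide 2 lowest. The span over the arrays was 3.65-fold. Control had the highest group mean, 9.18 ± 0.75 (SD, n = 2), followed by the combination at 8.97 ± 0.54 (SD, n = 3), aspirin at 8.71 ± 0.55 (SD, n = 3) and triptolide at 8.53 ± 0.60 (SD, n = 3), and neighbouring means lay within 1 SD of each other.

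Lep encodes leptin, the hormone that signals fat stores to the brain. It read 7.50 and 7.06 in controls, 7.08, 7.71 and 7.13 with aspirin, 7.25, 6.66 and 7.30 with triptolide, and 6.86, 7.73 and 7.16 with the combination. Combination 2 and aspirin 2 were the highest arrays and triptolide 2 the lowest. The span was 2.1-fold, and the 4 group means lay between 7.07 ± 0.36 (SD, n = 3, triptolide) and 7.31 ± 0.35 (SD, n = 3, aspirin), closer together than the arrays of any 1 group.

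**Figure D1:**
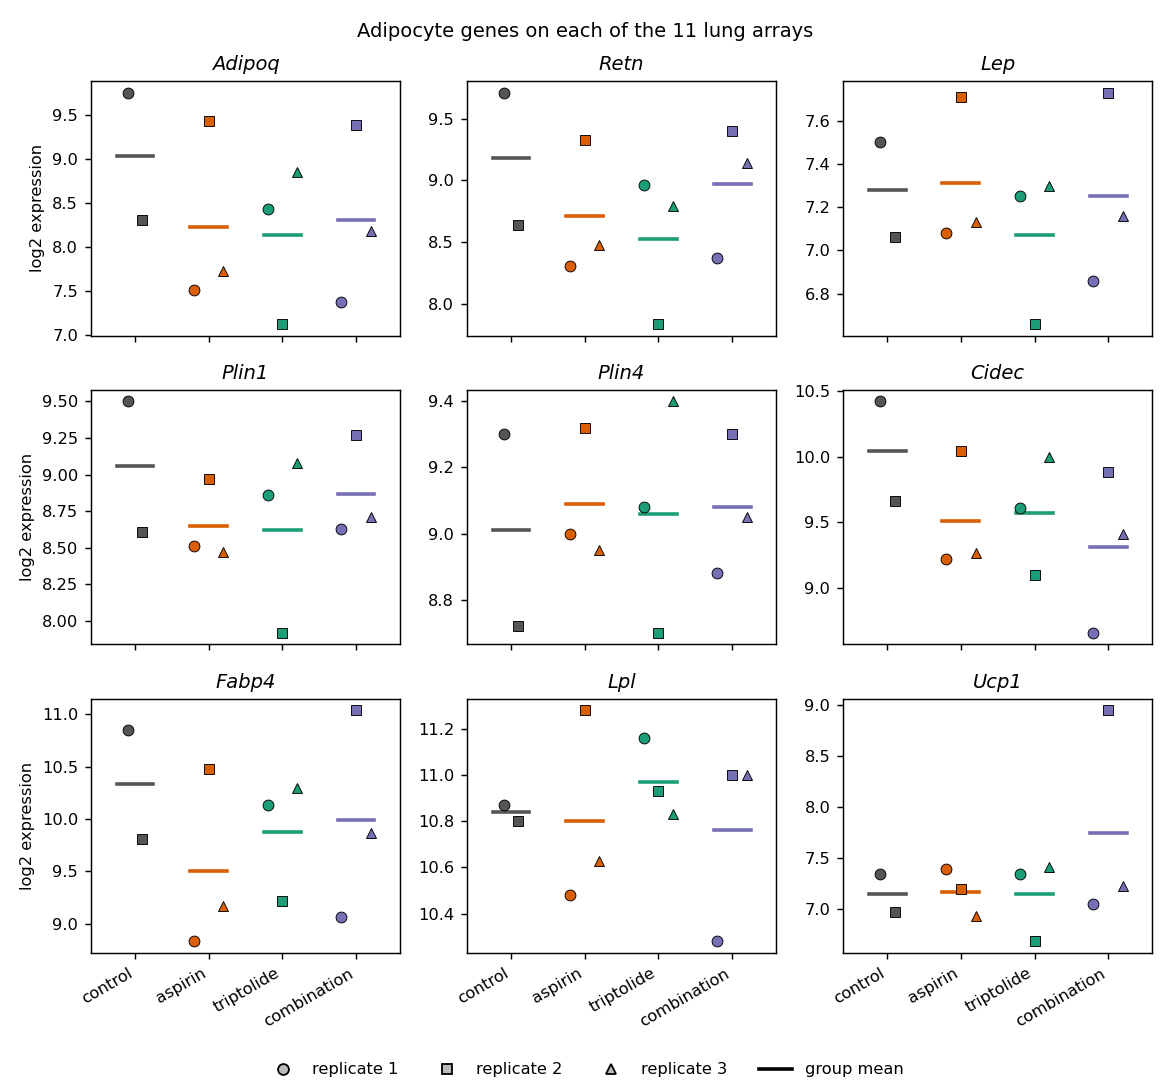
The log2 expression of each of the 9 measured adipocyte genes (vertical axis, own scale per gene) is plotted for every array in the 4 groups, with the replicate number as the symbol and the group mean as a bar. Control 1 and combination 2 were highest in their groups for 9 of 9 genes, and the Ucp1 value of combination 2 (8.95) lies far above the other 10 arrays.

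The lipid droplet genes followed the same arrays. Plin1 encodes perilipin 1, the coat protein that guards the fat droplet against lipases. It read 9.50 and 8.61 in controls, 8.51, 8.97 and 8.47 with aspirin, 8.86, 7.92 and 9.08 with triptolide, and 8.63, 9.27 and 8.71 with the combination. Control 1 was highest and triptolide 2 lowest, a span of 2.98-fold. The group means lay between 8.62 ± 0.62 (SD, n = 3, triptolide) and 9.06 ± 0.63 (SD, n = 2, control), and the groups overlapped.

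Cidec encodes a droplet protein that helps small droplets fuse into a large one. It read 10.42 and 9.66 in controls, 9.22, 10.04 and 9.27 with aspirin, 9.61, 9.10 and 10.002 with triptolide, and 8.66, 9.88 and 9.41 with the combination. The span was 3.38-fold, with control 1 highest and combination 1 lowest. The control mean was 10.04 ± 0.53 (SD, n = 2) and the combination mean 9.31 ± 0.62 (SD, n = 3), yet combination 2 at 9.88 lay above control 2 at 9.66.

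Plin4 encodes perilipin 4, which coats small, newly formed droplets. It read 9.30 and 8.72 in controls, 9.0, 9.32 and 8.95 with aspirin, 9.08, 8.70 and 9.40 with triptolide, and 8.88, 9.30 and 9.05 with the combination. Its span of 1.63-fold was the narrowest of the 9 genes, but the 4 arrays that were highest in their groups were again control 1, aspirin 2, triptolide 3 and combination 2. The group means were nearly level, from 9.01 ± 0.41 (SD, n = 2, control) to 9.09 ± 0.20 (SD, n = 3, aspirin).

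Fabp4 encodes the fatty acid carrier of fat cells. It read 10.85 and 9.81 in controls, 8.83, 10.48 and 9.17 with aspirin, 10.13, 9.22 and 10.30 with triptolide, and 9.06, 11.04 and 9.87 with the combination. Combination 2 and control 1 were the highest arrays and aspirin 1 the lowest, a span of 4.62-fold. The control mean was 10.33 ± 0.73 (SD, n = 2) and the aspirin mean, the lowest, 9.50 ± 0.87 (SD, n = 3), and aspirin 2 lay above control 2.

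Lpl encodes lipoprotein lipase, the enzyme that frees fatty acids from circulating lipoproteins. It read 10.87 and 10.80 in controls, 10.48, 11.28 and 10.63 with aspirin, 11.16, 10.93 and 10.83 with triptolide, and 10.28, 11.0024 and 11.0019 with the combination. Aspirin 2 was again the highest aspirin array, but triptolide 3 was the lowest triptolide array, the control arrays differed by only 1.05-fold, and combination 2 and combination 3 were level. The span was 2.01-fold, and the group means lay between 10.76 ± 0.42 (SD, n = 3, combination) and 10.97 ± 0.17 (SD, n = 3, triptolide).

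Ucp1 differed from the other genes in the size of 1 value. It read 7.34 and 6.97 in controls, 7.39, 7.19 and 6.93 with aspirin, 7.34, 6.68 and 7.41 with triptolide, and 7.05, 8.95 and 7.22 with the combination. Combination 2 exceeded the next array by 1.53, or 2.89-fold, while the other 10 arrays spanned 6.68 to 7.41. Aspirin 2, the highest aspirin array for the other 8 genes, was not the highest aspirin array for Ucp1, while control 1 and triptolide 3 were highest in their groups as for Adipoq. The combination mean of 7.74 ± 1.05 (SD, n = 3) therefore rests on 1 array, and the means of the other groups lay between 7.15 and 7.17.

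Counted over the genes, control 1 was the highest control array for 9 of 9, aspirin 2 the highest aspirin array for 8 of 9, triptolide 3 the highest triptolide array for 7 of 9 and combination 2 the highest combination array for 9 of 9, with Lpl level on combination 2 and combination 3. Over all genes these arrays were highest in their group for 50.5%, 32.5%, 27.6% and 26.5%. Adipoq, Plin1, Plin4, Lep, Cidec and Fabp4 had all 4 of these arrays on top, a pattern held by 131 of all genes (0.657%). The 4 arrays were picked from the values of the adipocyte genes themselves, so these counts are no test against the shares of all genes. At the low end, control 2 and combination 1 were lowest in their group for 9 of 9 genes and triptolide 2 for 8 of 9, and aspirin 1 was lowest for 6 of 9. Combination 1 is also the array that stood apart from the rest across all genes, and its part in the low values was not tested.

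**Figure D2:**
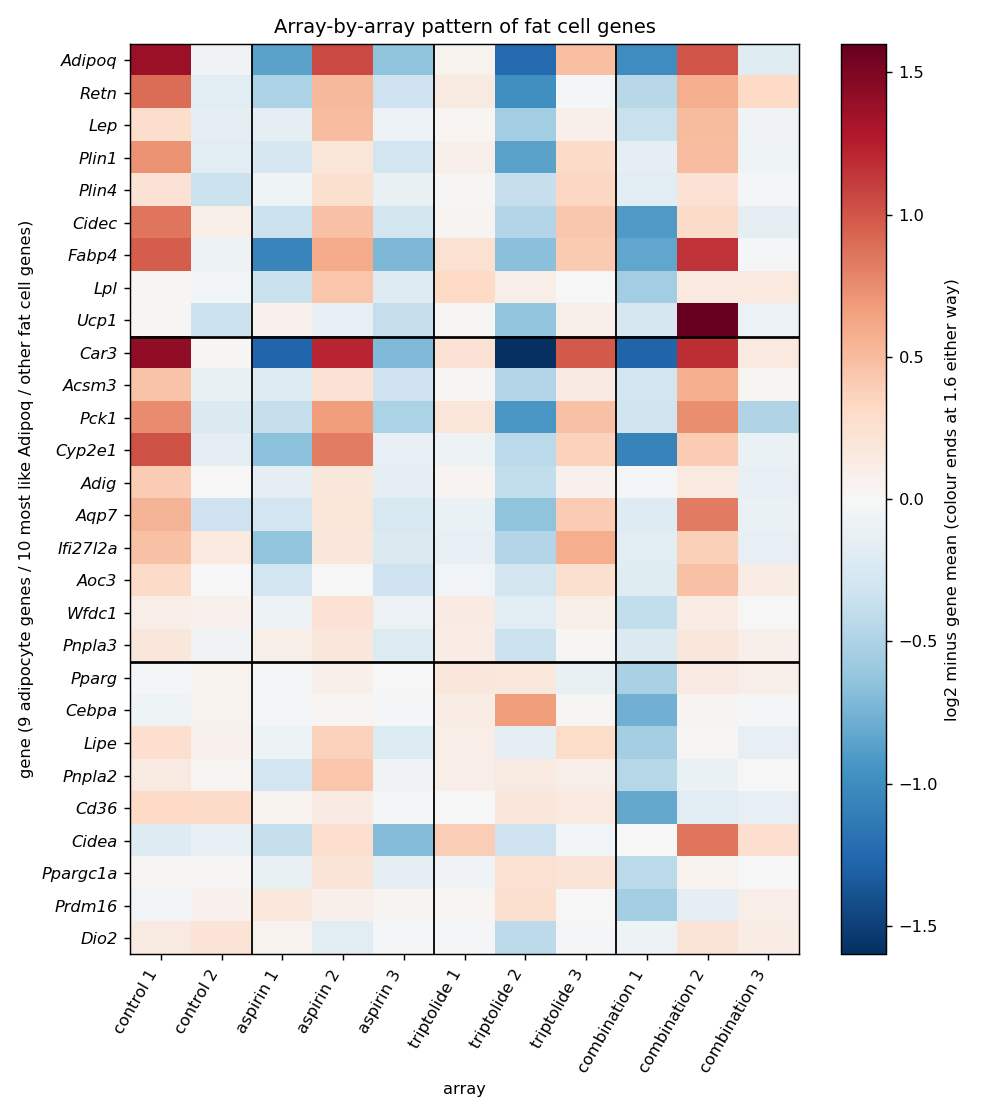
Colour shows the log2 value minus the gene's mean over the 11 arrays (columns, grouped by treatment) for the 9 adipocyte genes, the 10 genes most like Adipoq, and other fat cell genes (rows). Red columns at control 1, aspirin 2, triptolide 3 and combination 2 run through most of the upper rows, while Pparg and Cebpa in the lower rows are lowest at combination 1, and Cebpa is highest at triptolide 2.

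The share of variation that lay between groups was small. For all 9 genes the between-group share of the sum of squares was under the median of all genes, 33.0%, and ran from 1.28% for Plin4 to 25.7% for Cidec. The widest range within a group exceeded the range of the group means for 9 of 9 genes, against 89.8% of all genes. The SD over the arrays was above that of 90% of genes for 7 of the 9, the exceptions being Plin4 (83.6%) and Lpl (89.6%). The adipocyte genes were thus among the more variable genes, with little of that variation between the groups.

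Against control, aspirin gave the following limma differences, in log2 ± SE. Adipoq was at -0.80 ± 0.74 (95% interval -2.42 to 0.83), Fabp4 at -0.83 ± 0.61, Cidec at -0.53 ± 0.39, Retn at -0.47 ± 0.45 and Plin1 at -0.40 ± 0.36. Lpl at -0.04 ± 0.26, Lep at 0.03 ± 0.29, Ucp1 at 0.02 ± 0.47 and Plin4 at 0.07 ± 0.23 lay near 0, and the signs of Lpl, Lep and Ucp1 turned under quantile normalization. Some of the larger differences were not stable in sign either. Adjusted for the level of Y-linked genes, Adipoq was at 0.05 ± 1.35, Plin1 at 0.19 ± 0.63 and Retn at 0.30 ± 0.78. Without control 1 Plin1 was at 0.04 and Retn at 0.07. Fabp4 and Cidec kept their sign, at -0.08 ± 1.11 and -0.29 ± 0.73 with that adjustment. Without control 1 they were at -0.32 and -0.15. None of the 9 genes passed at a limma Benjamini-Hochberg adjusted p under 0.05, as was so for 0.0% of all genes, and each had an adjusted p of 1. The median of the 9 was -0.40, with 6 lower and 3 higher, beside a median of 0.00 over all genes. The groups did not overlap for 26.0% of all genes and for 0 of the 9. All 3 aspirin arrays had low Xist and both control arrays high Xist, so aspirin and the sex-linked difference cannot be told apart in this comparison.

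Triptolide against control gave a similar set of values, and it shares the control arrays with the aspirin comparison. Adipoq was at -0.89 ± 0.74 (95% interval -2.51 to 0.73), Retn at -0.65 ± 0.45, Cidec at -0.47 ± 0.39, Fabp4 at -0.45 ± 0.61 and Plin1 at -0.43 ± 0.36. Lep was at -0.21 ± 0.29, Ucp1 at -0.01 ± 0.47, Plin4 at 0.05 ± 0.23 and Lpl at 0.14 ± 0.26, and the sign of Ucp1 turned under quantile normalization. Every limma adjusted p was 1, and 0 of the 9 passed, beside 0.0% of all genes. The median was -0.43, with 7 lower and 2 higher, beside -0.01 over all genes. Groups did not overlap for 0 of the 9 and for 23.2% of all genes. Both control arrays had high Xist, while the triptolide arrays read 12.32, 9.75 and 6.61. Triptolide is therefore partly mixed with the sex-linked difference in this comparison.

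For the combination against control, Cidec was at -0.73 ± 0.39, with an unadjusted p of 0.0902 and a limma adjusted p of 0.446, the lowest of any of the 9 genes in any comparison. Adipoq was at -0.71 ± 0.74 (95% interval -2.34 to 0.91), Fabp4 at -0.34 ± 0.61, Retn at -0.20 ± 0.45 and Plin1 at -0.19 ± 0.36. Lpl was at -0.08 ± 0.26, with its sign turned under quantile normalization, Lep at -0.03 ± 0.29 and Plin4 at 0.07 ± 0.23. Ucp1 was the only gene well above 0, at 0.59 ± 0.47 (95% interval -0.44 to 1.62, limma adjusted p 0.628). The median was -0.19, with 7 lower and 2 higher, beside 0.01 over all genes. None of the 9 passed, beside 0.0% of all genes, and groups did not overlap for 0 of the 9 against 34.8% of all genes.

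These differences turned on single arrays. Without control 1 the Adipoq difference from control was -0.08 for aspirin, -0.17 for triptolide and 0.01 for the combination, and without control 2 it was -1.52, -1.61 and -1.43. The Ucp1 difference of the combination from control was -0.02 without combination 2 and 0.93 without combination 1. The Cidec difference of the combination from control was -1.01 without combination 2 (unadjusted p 0.0275, limma adjusted p 0.339) and -1.10 without control 2 (limma adjusted p 0.691). Counted over the 9 genes, 5 were higher and 4 lower for aspirin without control 1, 6 and 3 for triptolide, and 7 and 2 for the combination, with medians of 0.04, 0.01 and 0.19. Without combination 1, which stood apart across all genes, 6 were higher and 3 lower in combination minus control, with a median of 0.13. The size of the Adipoq difference from control thus depended on which of the 2 control arrays was kept.

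**Figure D3:**
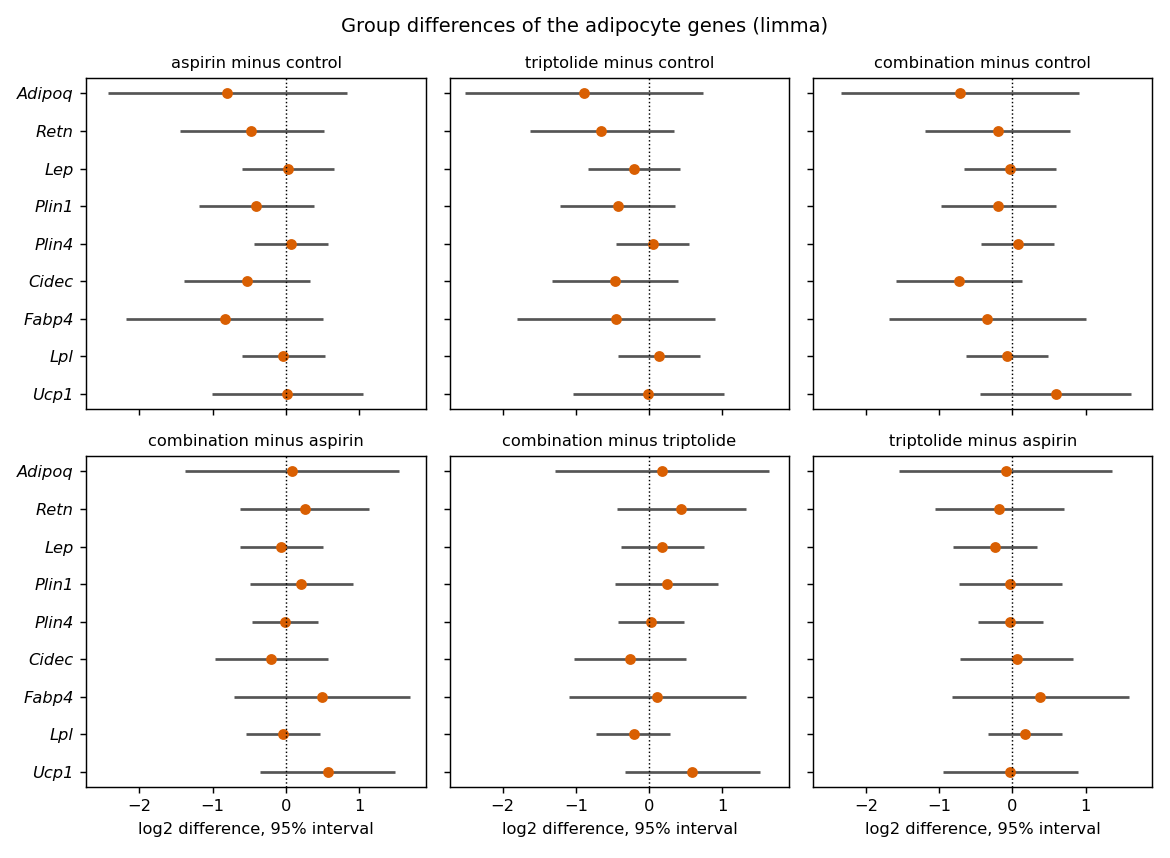
Points are limma log2 differences between groups for the 9 adipocyte genes and bars their 95% intervals (horizontal axis), with 1 panel for each of the 6 comparisons. Each interval crosses 0, and those of Adipoq are the widest, at -2.42 to 0.83 for aspirin minus control; the signs of Lep, Lpl and Ucp1 near 0 turned under quantile normalization.

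Between the drug groups the values lay closer to 0. The median over the 9 genes was 0.08 for combination minus aspirin (range -0.20 to 0.57), 0.18 for combination minus triptolide (-0.26 to 0.59) and -0.03 for triptolide minus aspirin (-0.24 to 0.38). Ucp1 gave the upper end in both combination comparisons, at 0.57 ± 0.42 (limma adjusted p 0.631) against aspirin and 0.59 ± 0.42 (limma adjusted p 0.462) against triptolide. Without combination 2 these were -0.03 and -0.01, and adjusted for the level of Y-linked genes -0.26 and -0.04. All 3 combination arrays had high Xist and all 3 aspirin arrays low Xist, so the added triptolide and the sex-linked difference cannot be told apart in combination minus aspirin. The triptolide arrays differed in Xist (12.32, 9.75 and 6.61), so combination minus triptolide is partly mixed with the sex-linked difference. None of the 9 genes passed in the 3 comparisons, beside 0.0% of all genes in each, and their groups overlapped in each, while 15.3%, 17.9% and 9.89% of all genes had groups that did not overlap. Over the 6 comparisons and 9 genes, 0 of 54 differences had an unadjusted limma p under 0.05 in this fit. Per comparison, 561 to 2795 of the 19938 genes did. With arrays weighted by their agreement with the fit, 12 of 54 did, beside 2332 to 4900 of all genes per comparison. Pooled over the comparisons, that count lay near the share of all genes. It ranged from 0 of 9 for triptolide minus control (2332 of all genes) to 5 of 9 for aspirin minus control (4067 of all genes). With these weights 0 passed, the lowest limma adjusted p being 0.0581 for Ucp1 in combination minus aspirin (1.24).

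The 7 genes other than Lpl and Ucp1 varied together. Over the 11 arrays, which share 1 normalization, their 21 pairs had Pearson correlations of 0.74 to 0.95 with a median of 0.85, and 0.85 to 0.99 with a median of 0.93 after the group means were removed. Adipoq had a median correlation of 0.02 with genes outside the set, predicted genes, clones, small RNAs, receptor families and immune receptor segments left out. Within the set its correlation was 0.95 for Fabp4, 0.93 for Cidec and Retn, 0.92 for Lep, 0.91 for Plin1 and 0.82 for Plin4. Spearman's rho was 0.90, 0.97, 0.92, 0.91, 0.89 and 0.82 in that order. Without control 1 and triptolide 2, the arrays farthest from the Adipoq median, the Pearson values were 0.96, 0.91, 0.88, 0.93, 0.88 and 0.75. The joint pattern of these 7 genes was therefore also present in the other 9 arrays.

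Lpl and Ucp1 followed less closely. Lpl correlated with Adipoq at 0.59 (rho 0.56), and at 0.83 without control 1 and triptolide 2. Ucp1 correlated with Adipoq at 0.55 (rho 0.53), and at 0.56 over the 10 arrays other than combination 2. Without both combination 2 and triptolide 2, the arrays farthest from the Ucp1 median, that correlation was 0.37. Against the 7 genes, Lpl had a median of 0.56 (0.30 to 0.68) and Ucp1 of 0.59 (0.38 to 0.68). These correlations describe the 11 arrays and carry no test.

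**Figure D4:**
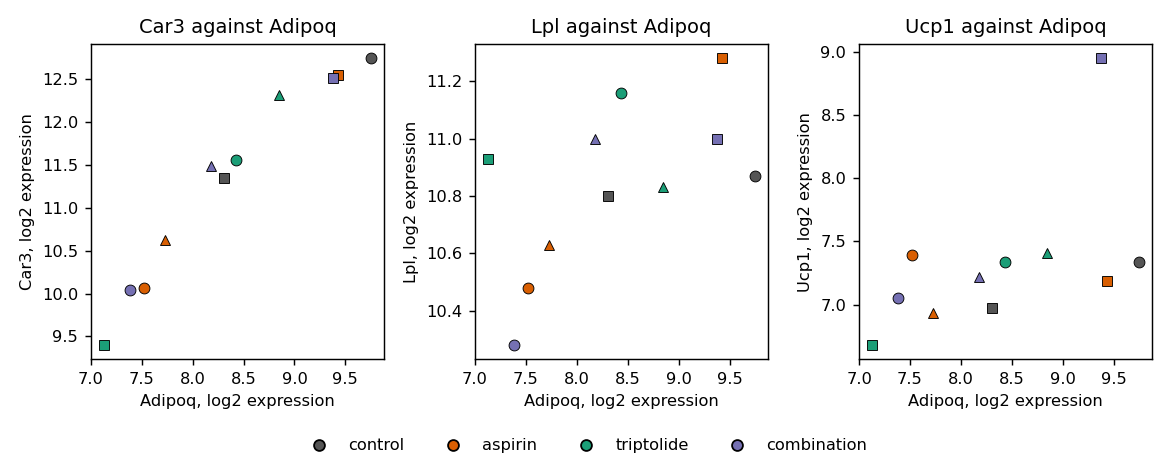
Log2 expression of Car3, Lpl and Ucp1 (vertical axes) is plotted against Adipoq (horizontal axis) with 1 point per array, coloured by group; circles, squares and triangles are replicates 1, 2 and 3. Car3 climbs with Adipoq over all 11 arrays (r 0.98), Lpl scatters more widely (0.59), and Ucp1 has a correlation of 0.55, with combination 2 far above the other 10 arrays.

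The 10 genes most like Adipoq by Pearson correlation, the adipocyte set left out, were Car3 (0.98), Acsm3 (0.95), Pck1 (0.94), Cyp2e1 (0.93), Adig (0.90), Aqp7 (0.88), Ifi27l2a (0.85), Aoc3 (0.85), Wfdc1 (0.81) and Pnpla3 (0.81). Car3 encodes carbonic anhydrase 3, an abundant enzyme of fat cells and slow muscle. It read 12.74 and 11.34 in controls, 10.06, 12.54 and 10.62 with aspirin, 11.56, 9.40 and 12.31 with triptolide, and 10.04, 12.51 and 11.48 with the combination. Its span of 10.1-fold was wider than that of Adipoq, on the same high and low arrays. Pck1 encodes the enzyme that supplies glycerol for fat storage, Aqp7 the glycerol channel of fat cells and Adig a small fat cell protein, and these 3 with Car3 are the 4 of the 10 that are in the white adipocyte list described next. Without control 1 and triptolide 2, 4 of the 10 stayed among the 10 most like Adipoq, and by Spearman's rho 7 did.

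For Ucp1 the 5 most similar genes were Nek10 (0.94), Ccl2 (0.92), Atp6v1b1 (0.91), Slc28a3 (0.90) and Sf3b1 (0.89). Without combination 2 and triptolide 2 their correlations were 0.60, 0.60, 0.50, 0.41 and -0.19. Their likeness to Ucp1 over the 11 arrays rests largely on those 2 arrays, and none of them is in the brown adipocyte list.

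Other genes of white fat followed these arrays in part. Of 30 measured genes of a white adipocyte list, 25 were highest on control 1, 26 on aspirin 2, 16 on triptolide 3 and 19 on combination 2 within their groups. The 9 genes with all 4 arrays on top were Lipe, Dgat2, Dgat1, Pck1, Aqp7, Adig, Nnat, Car3 and Trarg1, which include the hormone-sensitive lipase and the enzymes of the last step of triglyceride synthesis. The median correlation with Adipoq was 0.53, with 5 genes at 0.8 or more and 13 under 0.5. Besides Car3, the widest ranges belonged to Mest, Thrsp and Pck1. Thrsp, a regulator of fat synthesis, was highest on combination 2 at 9.60. Pck1 read 9.48 on control 1, 9.40 on aspirin 2, 9.20 on triptolide 3 and 9.47 on combination 2, and 7.80 on triptolide 2.

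The factors that drive the fat cell program did not share the pattern. Pparg read 10.05 and 10.14 in controls, 10.05, 10.17 and 10.08 with aspirin, 10.27, 10.25 and 9.96 with triptolide, and 9.57, 10.21 and 10.18 with the combination. Its correlation with Adipoq was 0.24, and Pparg is also known to be expressed in alveolar macrophages. Cebpa, with values from 9.35 on combination 1 to 10.78 on triptolide 2, had a correlation of 0.00. Alveolar type 2 cells also express Cebpa.

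In the group comparisons 0 of the 30 white adipocyte genes passed, beside 0.0% of all genes in each. Against control 24 were lower and 6 higher with aspirin (median -0.08), 17 lower and 13 higher with triptolide (median -0.04), and 23 lower and 7 higher with the combination (median -0.20), beside medians over all genes of 0.00, -0.01 and 0.01. The lower values with the combination came with combination 1, where the list level was -0.42, against 0.15 and -0.01 on combination 2 and combination 3. Without combination 1, 15 of the 30 were lower and 15 higher in combination minus control (median -0.01), and without control 1 the counts were also 15 and 15 (median -0.04). Without control 1, aspirin gave 16 lower and 14 higher, and triptolide 11 lower and 19 higher (median 0.06). At an unadjusted p under 0.05, 6 of the 30 lay apart in combination minus control, as did 2795 of the 19938 genes tested.

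Brown fat genes were counted in the same way. Of 17 measured genes, 9 were highest on control 1, 11 on aspirin 2, 9 on triptolide 3 and 9 on combination 2, and Cox7a1, Cox8b and Ebf2 had all 4 on top. Cidea, a droplet protein of brown fat, read 8.02 and 8.10 in controls, 7.85, 8.50 and 7.54 with aspirin, 8.62, 7.90 and 8.19 with triptolide, and 8.24, 9.09 and 8.50 with the combination. Its highest array was combination 2, as for Ucp1. Cox8b, a respiratory chain subunit of brown fat and heart, was highest on triptolide 3 at 10.81, followed by aspirin 2 and combination 2 at 10.52. Slc27a2 was also highest of all arrays on combination 2, at 8.33 against 8.03 on combination 3. So were, narrowly, Otop1 (8.56, with 8.52 on combination 1) and Ebf2 (7.34, with 7.31 on control 1). The remaining genes of the list were highest on other arrays. Among them Ppargc1a, Prdm16 and Dio2, other genes of the brown fat program, had values of 8.69, 9.30 and 7.69 on combination 2. These lay inside the range of the other arrays for all 3, and the highest Dio2 value was 7.70 on control 2. Against control 8 brown fat genes were higher and 9 lower with aspirin, 9 and 8 with triptolide, and 6 and 11 with the combination. None of them passed, beside 0.0% of all genes. Without combination 1, 10 were higher and 7 lower with the combination.

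Genes that make fat or handle its hormones were also measured. Of 14 fatty acid synthesis genes, 0 had all 4 arrays on top and the median correlation with Adipoq was 0.13. Against the control 12 of them were lower and 2 higher with the combination (median -0.27), 8 and 6 with aspirin, and 6 and 8 with triptolide. None of the 14 passed, beside 0.0% of all genes. The list level was -0.39 on combination 1 against -0.08 and 0.06 on combination 2 and combination 3, and without combination 1 the median was -0.09, with 11 lower and 3 higher. Fasn, the fatty acid synthase, was lowest on combination 1 at 11.32 and highest on triptolide 2 at 12.45, the array with the lowest Adipoq. Among 8 partners of lipoprotein lipase the median correlation with Adipoq was 0.21. Gpihbp1, the capillary anchor of the enzyme, read 10.81 and 10.69 in controls, 10.61, 10.75 and 10.39 with aspirin, 10.50, 10.32 and 10.65 with triptolide, and 9.89, 10.02 and 10.36 with the combination. Among the 5 adipokine receptor genes, including Adipor1, Adipor2, Cdh13 and Lepr, 5 were lower with the combination than in controls (median -0.24, beside 0.01 over all genes), 4 with aspirin and 3 with triptolide. Their level was -0.38 on combination 1, -0.14 on combination 2 and 0.01 on combination 3, and without combination 1 there were 4 lower and 1 higher (median -0.20). In neither list did a gene pass, beside 0.0% of all genes.

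Levels of marker lists were set beside the adipocyte genes, each level being the mean log2 value of the list's genes minus their mean over the arrays. The adipocyte level was 0.60 and -0.14 in controls, -0.39, 0.43 and -0.34 with aspirin, 0.11, -0.63 and 0.23 with triptolide, and -0.52, 0.68 and -0.01 with the combination. The 12 heart muscle genes were high on aspirin 2 (0.47) and triptolide 3 (0.84), which were also high for adipocyte genes. Their level was -0.19 on control 1 against -0.41 on control 2, and ran from -0.23 to -0.12 with the combination. Of the 12 genes, 10 were highest in their group on control 1, 11 on aspirin 2, 11 on triptolide 3 and 1 on combination 2, so the combination group did not share the order of the adipocyte genes. The 9 neutrophil genes stood at 2.58 on aspirin 2 and 0.49 on triptolide 3, against -0.57 on control 1 and -0.42 on combination 2, and 9 of 9 were highest in their group on aspirin 2 and on triptolide 3, 4 on control 1 and 1 on combination 2. Of the arrays high for adipocyte genes, control 1 and combination 2 had high Xist (11.98 and 12.80), and aspirin 2 and triptolide 3 low Xist (6.86 and 6.61). The part of these other signals in the adipocyte pattern was not tested.

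The lists of lung cell types had no common direction on the 4 arrays that were high for adipocyte genes. Lung epithelium read 0.04, 0.09, 0.07 and -0.09 on control 1, aspirin 2, triptolide 3 and combination 2, and -0.66 on combination 1. Capillary endothelium read 0.43, 0.20, 0.21 and -0.39 on the 4 high arrays, and mesothelium 0.21, -0.17, 0.16 and -0.03. The correlation of the list level with Adipoq over the 11 arrays was 0.17 for lung epithelium, 0.24 for alveolar macrophages and 0.36 for capillary endothelium. Mesothelium had 0.14 and heart muscle 0.27, against 0.90 for white and 0.75 for brown adipocyte genes. Taken singly, the 17 brown fat genes had a median correlation of only 0.42, with 0 at 0.8 or more and 13 under 0.5. For tissues that lie beside the lung the correlation of the list level was -0.02 for thymus, 0.09 for skeletal muscle and -0.19 for lymph node and B cells. It was 0.02 for the 2 nerve genes and 0.58 for the 4 thyroid genes. Of the thyroid genes, Tshr correlated with Adipoq at 0.74, but Tg at 0.30, Pax8 at 0.22 and Slc5a5 at 0.18. The correlation was 0.30 for neutrophils, 0.34 for fibroblasts and 0.39 for the alternative complement pathway. On combination 1 all of lung epithelium, alveolar macrophage (-0.57), endothelium (-0.60) and mesothelium (-0.65) were low together with the adipocyte genes, while the lymph node and B cell list was at 0.96.

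**Figure D5:**
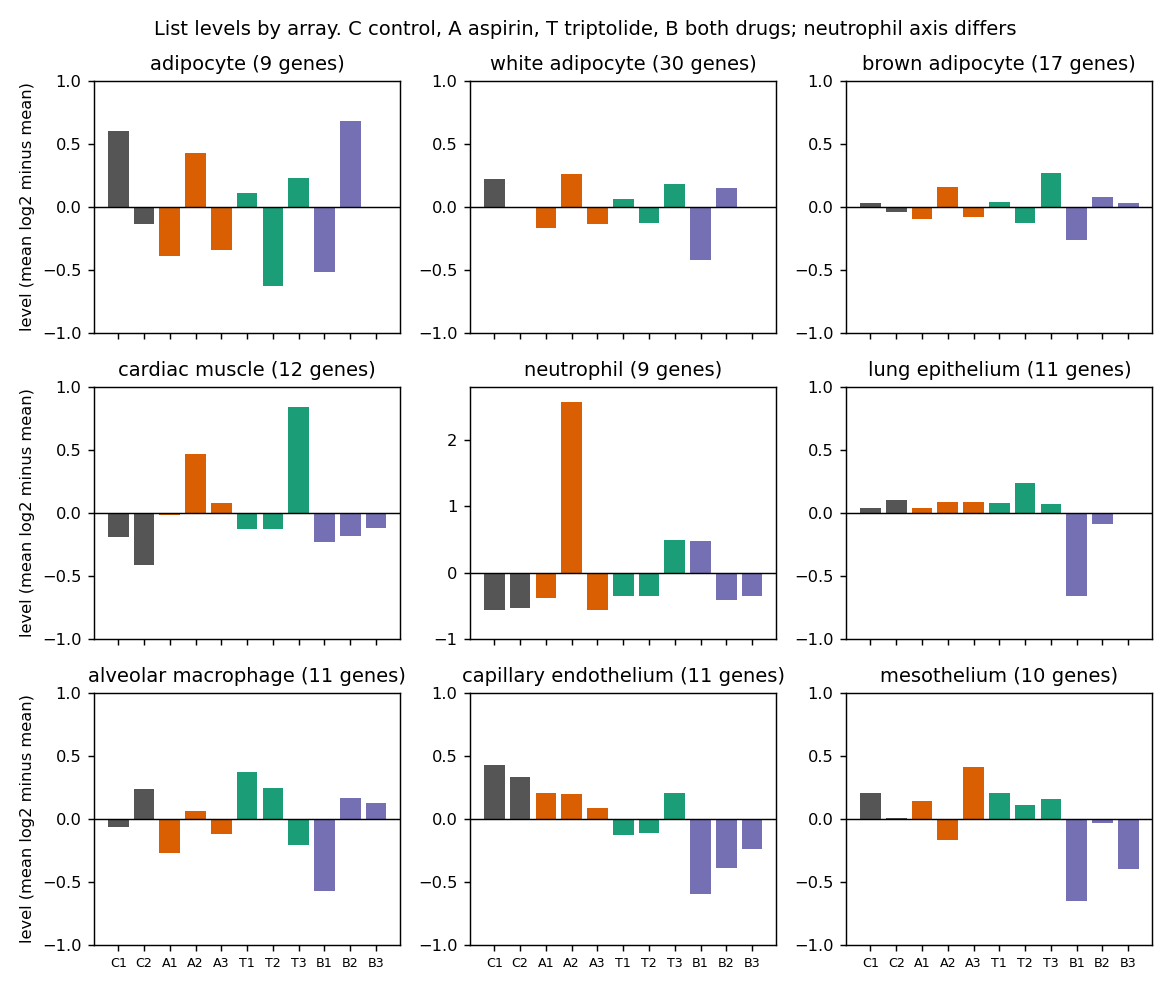
Bars show the level of 9 gene lists on each array (C control, A aspirin, T triptolide, B both drugs), as the mean over the list's genes of the log2 value minus its mean over the 11 arrays; the neutrophil panel has its own axis. The adipocyte level stands at 0.60, 0.43, 0.23 and 0.68 on control 1, aspirin 2, triptolide 3 and combination 2, and heart muscle at -0.19, 0.47, 0.84 and -0.18 on the same arrays.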

How the data were processed

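The authors deposited log2 expression values, 35556 rows for each of 11 arrays. The submitters' processing notes name RMA and Partek. Neither their settings nor a genome build is stated in the sources used here. Groups and replicate numbers came from the sample titles. Of the rows, 21789 had 1 symbol in GEO's platform annotation, 1621 several and 12146 none here. Where several rows shared a symbol, as for 999 genes, the one of highest mean was kept, giving 19938 genes.

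All 4 groups and 11 arrays entered 1 linear model per gene (limma 3.58.1, R 4.3.3; lmFit, then eBayes), without covariates or a filter. The fit had 7 residual and 3.68 prior degrees of freedom. Tests were two-sided, with Benjamini-Hochberg adjustment over all genes and a threshold of 0.05. The fit was tested on simulated data. Array medians ran from 8.135 to 8.254. Precision is limited by how few arrays there are. The genes named are the adipocyte set, up to 4 genes per other list with the widest range, and the 10 genes most like Adipoq and 5 most like Ucp1, leaving out predicted genes, clones, small RNAs, receptor families and immune receptor segments. Pparg, Cebpa, Cidea, Slc27a2, Otop1, Ppargc1a, Prdm16, Dio2, and the list genes with all 4 high arrays on top were named after their values were seen. Members and lists were chosen with earlier results of these data known. Of 206 list symbols 190 were measured. Promoter windows and their coordinates are those of RefSeq on GRCm38.p6. Alternatives covered row choice, scaling, filtering, the arrays in the fit, moderation, array weights, an intensity trend, a replicate block, sex-linked level and leaving out each array. The list counts without combination 1, control 1 or control 2 were added after seeing the data.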

Additional observations from a re-analysis of the deposited data

How the results depend on the processing

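The count of adipocyte genes that passed was 0 in all 6 comparisons under every setting run, and the lowest limma adjusted p of any of them was 0.0581 with array weights (Ucp1, combination minus aspirin) and 0.293 under the other settings. With array weights, aspirin minus control was -1.16 for Adipoq (unadjusted p 0.0264), and Cidec, Fabp4, Plin1 and Retn also had an unadjusted p under 0.05, as did 4067 of all genes; the lowest limma adjusted p was 0.119, for Cidec. Counts over all genes, 0 in each comparison in the fit reported, moved more. With array weights 535 genes passed for aspirin minus control, 10 for triptolide minus control, 1704 for combination minus control, 873 for combination minus aspirin, 1 for combination minus triptolide and 137 for triptolide minus aspirin. The default weight estimate did not converge, so a gene-by-gene estimate was used. For combination minus control, 83 passed with arrays centred on their median, 66 with genes above the 25th percentile of mean level, 3 after quantile normalization, 152 with the replicate number as a block and 96 with the sex-linked level as a covariate. With only the 2 groups compared, 4 passed for aspirin minus control and 2 for combination minus aspirin; for the latter, centring, filtering and quantile normalization each gave 1. Leaving out 1 array gave 0 to 4 for aspirin minus control, 0 to 3 for triptolide minus control, 0 to 896 for combination minus control, 0 to 704 for combination minus aspirin, 0 to 24 for combination minus triptolide and 0 to 0 for triptolide minus aspirin, where 896, 704 and 24 came without combination 3. At an unadjusted p under 0.05 the reported limma fit had 609, 561, 2795, 2322, 2703 and 660 genes, in the same order of comparisons. The cause of these shifts was not tested.

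The labels do not say what the replicate numbers mark, and the numbers were not treated as pairs because 5 of 15 same-number pairs had a correlation of deviations over 0.1 (range -0.14 to 0.33). Of the 11 arrays, 7 correlated best with their own number. Control 2, aspirin 2 and triptolide 2 correlated at 0.25 to 0.33, a hint from the data of a shared number effect. The highest correlation of any pair, 0.34, was however that of control 1 and triptolide 3, which have different numbers. The deviations of control 1 and control 2 mirror each other, so their correlations are not separate evidence. Of 29 differences of single genes, 22 changed sign under at least 1 setting, and 275 of 301 values under other settings and 287 of 319 without 1 array kept their direction and side of the threshold. With the sex-linked covariate, aspirin minus control was 0.05 for Adipoq, 0.19 for Plin1, 0.30 for Retn and 0.21 for Lpl; triptolide minus control was 0.03 for Plin1, 0.17 for Lep, 0.14 for Fabp4 and 0.73 for Ucp1; combination minus control was 0.03 for Lep; and Ucp1 was -0.26 for combination minus aspirin and -0.04 for combination minus triptolide. With array weights, aspirin minus control was -0.03 for Plin4, -0.10 for Lep and -0.17 for Ucp1, triptolide minus control 0.19 for Ucp1, and combination minus control 0.20 for Lep, 0.07 for Retn, 0.18 for Fabp4 and 0.12 for Lpl. Quantile normalization gave -0.01 for Lep, 0.01 for Lpl and -0.01 for Ucp1 in aspirin minus control, 0.03 for Ucp1 in triptolide minus control and 0.04 for Lpl in combination minus control. For Ucp1, triptolide minus control was 0.19 on the arrays with high Xist and 0.07 with the replicate block.

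Leaving out 1 array gave, for aspirin minus control, -0.85 to 0.04 for Plin1, -0.22 to 0.37 for Plin4, -0.19 to 0.25 for Lep, -1.0 to 0.07 for Retn, -0.28 to 0.12 for Lpl and -0.17 to 0.20 for Ucp1. For triptolide minus control it gave -0.88 to 0.01 for Plin1, -0.24 to 0.34 for Plin4, -0.43 to 0.01 for Lep, -0.96 to 0.07 for Fabp4 and -0.19 to 0.23 for Ucp1. For combination minus control it gave -1.43 to 0.01 for Adipoq, -0.63 to 0.26 for Plin1, -0.22 to 0.36 for Plin4, -0.27 to 0.19 for Lep, -0.74 to 0.33 for Retn, -0.86 to 0.18 for Fabp4, -0.20 to 0.17 for Lpl and -0.02 to 0.93 for Ucp1. Ucp1 ran from -0.03 to 0.91 for combination minus aspirin and from -0.01 to 0.94 for combination minus triptolide.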
